A study of Mus musculus with 5 samples.

Results

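Clone 11B is 1 of 5 clones of mouse cardiac progenitor cells whose RNA was measured on Affymetrix expression arrays, with 1 array per clone. It was taken by its label and set against the other 4 clones, 1D, 20B, 30 and 42. For each gene the comparison was the log2 ratio of clone 11B minus the median log2 ratio of the other 4 clones, called the deviation here. All 5 clones came from left ventricles of adult C67BL/6 mice aged 5 to 6 months. Cells were pulled out with an antibody to Sca-1, expanded, picked with cloning rings and subcloned 1 to 2 times by dilution. The labels call them c-kit+ cardiac progenitor cells, name no treatment and do not tie a clone to an animal. Each group is therefore 1 clone on 1 array: no difference could be tested, and what sets clone 11B apart cannot be told apart from what set its culture or RNA preparation apart.

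Progenitor cells of the heart are studied largely for the factors they secrete. SDF-1, the product of Cxcl12, is a chemokine that draws progenitor and endothelial precursor cells through the receptor Cxcr4, while Ackr3 takes it up and Dpp4 cleaves it. The title of the series ties differences between clones in SDF-1 to their capacity to form vessels, so the first question was what else differs in the clone with the most Cxcl12.

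The deposited values are ratios without an expression level, in which most probe sets centre on 1. Of 18193 named genes on the array, 9435 were measured, meaning that at least 1 of their probe sets left the floor and varied, and 6388 of these rested on a single probe set. Differences are described by fixed sizes, mainly 1 log2 unit, which is 2-fold. The error that the files allow to be estimated comes from probe sets of the same gene. In clone 11B the deviations of 6681 such pairs had a spread of 0.58 log2 units (SD of the difference), which is 0.41 for 1 probe set. The 18 hybridization control probe sets, which carry array error only, had a standard deviation of 0.06 in clone 11B. On some probe sets the ratios of 3 or more of the other clones recurred together on at least 10 other probe sets. Such ratios are called shared levels here, and the size of a difference from them is uncertain.

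The RNA controls of clone 11B stood apart in part. Actb, which encodes the cytoskeletal actin, has control probe sets along its transcript, and their ratios in clone 11B were 0.822 at the 3' end, 0.623 in the middle and 0.491 at the 5' end. The 5' to 3' ratio of Actb was 0.597 in clone 11B and 0.743 to 1.08 in the other clones, the lowest of these in clone 30. The same ratio for Gapdh, a glycolytic enzyme, was 0.924 in clone 11B against 1.00 to 1.16 in the others, so the decline was not of the same size in both transcripts. The 5' to 3' ratio of Tfrc was highest in clone 11B, 0.963 against 0.772 to 0.940. That of Pcx was 1.54 against 0.846, 0.953, 1.27 and 1.91. The 5' probe set of Tfrc read 0.889 to 0.902 in the 5 clones. That of Pcx read 0.953 to 0.967 in all clones but 1D, at 1.47. At values below 1 that lay this close together, these ratios follow the 3' probe sets and could not show a 5' decline in clone 11B. The 18S ribosomal RNA probe sets read 0.411 to 0.555 in clone 11B and 0.651 to 1.57 in the other clones. The spiked poly-A controls of clone 11B had a median deviation of 0.03 and the hybridization controls one of 0.04. The part of these values in the results on single genes was not tested.

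**Figure D1:**
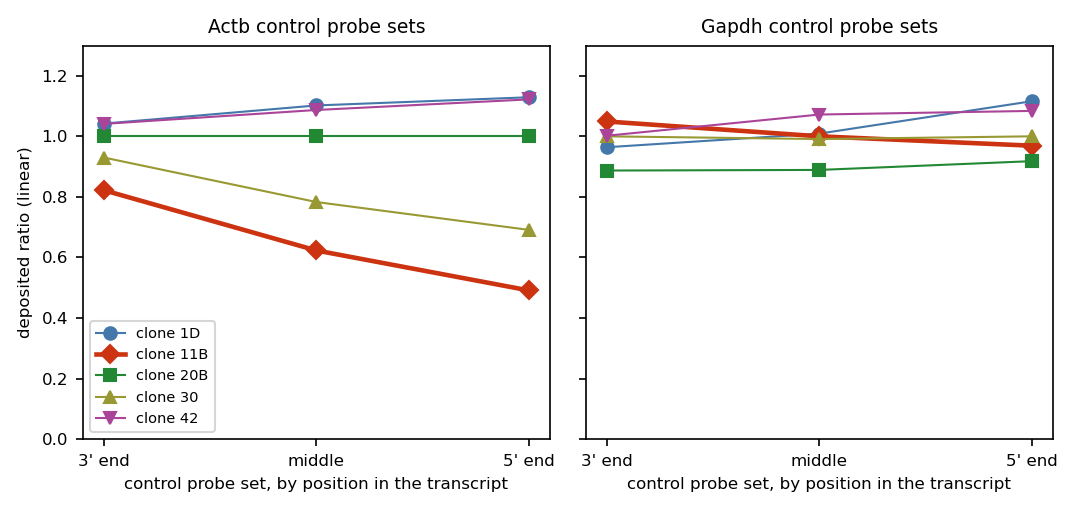
Deposited ratios (linear axis) of the control probe sets at the 3' end, middle and 5' end of Actb (left) and Gapdh (right), 1 line per clone, without error bars because each clone has 1 array. For Actb the line of clone 11B runs from 0.822 to 0.491, below all other clones, whereas for Gapdh it runs from 1.049 to 0.969.

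Markers of the cell types that a heart preparation could hold were mostly unmeasured or near 0 in clone 11B, with single exceptions. Kit, the receptor that c-kit names, had ratios of 1.002, 1.183, 0.991 and 0.997 in clones 1D, 20B, 30 and 42 and 1.00 in clone 11B. Pou5f1, the gene of oct-4, stayed below the level that counts as measured in all clones, and Ly6a, which encodes Sca-1, has no probe set of its own in the annotation, so the defining markers could not be checked. Only 2 of 16 endothelial markers were measured, Eng at -0.05 and Egfl7 at -0.03, and 4 of 16 leukocyte markers lay between -0.01 and 0.00. All 9 measured of 18 cardiomyocyte markers lay between -0.06 and 0.12, with Tnnc1 highest. Of 8 mast cell markers 4 were measured, and Hdc, which makes histamine, read 1.00, 1.00, 0.996 and 0.997 in clones 1D, 20B, 30 and 42 and 1.718 in clone 11B, while Ms4a2 lay at 0.27, Mcpt8 at 0.01 and Tpsb2 at -0.19. All 5 measured of 13 epicardial and mesothelial markers lay below the median, Krt8, an epithelial keratin, at -0.75 with clone 11B lowest, and the other 4 between -0.04 and -0.00. Smooth muscle markers are described with the matrix genes. The part of any such cells in the other results was not tested. Among 23 surface markers of progenitor and mesenchymal cells, 10 were measured and 3 passed 0.5 log2 units. These were Cd81, a tetraspanin, at 2.19, the hyaluronan receptor Cd44 at -0.72, and Itgb1, the beta chain of many matrix receptors, at -0.66. The Cd81 deviation came from the reference: clone 11B had a ratio of 1.00 and clone 1D 1.002, clone 20B stood at 3.48, and clones 30 and 42 at 0.048 and 0.0482.

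Cxcl12 was higher in clone 11B than in any other clone. On probe set 1417574_at the ratios were 0.984, 0.987, 0.974 and 1.056 in clones 1D, 20B, 30 and 42 and 2.78 in clone 11B. On probe set 1448823_at they were 0.997, 1.00, 0.307 and 1.001 against 1.89. Clone 11B lay above the other 4 clones on both probe sets, and clone 30 below them on the second only. The average deviation was 1.21 log2 units, 2.31-fold, and the gap to the nearest clone, 42, was 1.16. On the second probe set clones 1D, 20B and 42 held a shared level that recurred on 376 other probe sets. The first probe set did not have a median of 1, and clones 1D, 20B and 30 lay close together below 1 on it. The size of the difference is therefore uncertain on both. The deviation fell short of 1 log2 unit in 2 settings: 0.84 with the remaining, unmeasured probe set averaged in, and 0.92 on probe sets divided by their own median.

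The other members of the SDF-1 axis gave little. Cxcr4 was not measured, with ratios of 0.768 to 0.779 in the 5 clones. Ackr3 stood at 1.138, 1.005, 0.991 and 0.845 in clones 1D, 20B, 30 and 42 and at 1.00 in clone 11B. Dpp4 had a deviation of -0.01 on its measured probe set, with a shared level in the other clones.

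Other secreted factors of vessel growth did not lie to 1 side in clone 11B. Of 24 measured of 32 listed angiogenic factors, 11 lay above and 13 below the median of the other clones, with a median deviation of -0.00; over all 9435 measured genes the median was also -0.00, with 47.7% above and 52.3% below 0. Adm, the vasodilator peptide adrenomedullin, was the highest at 1.74. Its 2 probe sets put clones 11B and 20B together: probe set 1447839_x_at read 1.00, 3.37, 0.281 and 0.319 in clones 1D, 20B, 30 and 42 and 2.65 in clone 11B. Clone 20B exceeded clone 11B on both, so high Adm did not distinguish clone 11B. Sema3c, a guidance ligand, lay at -1.33 and Kitl, the ligand of c-kit, at -0.83, yet clone 30 was lower than clone 11B for each on the gene average. The probe sets of Kitl disagreed, with deviations of -2.74, 0.27 and 0.01. Pdgfa lay at -0.49 and Vegfa at 0.30. Among the receptors, Nrp2, a co-receptor of VEGF and semaphorins, lay at 0.68 and Fgfr1 at -0.65, with probe sets of Nrp2 at 1.11, 0.56 and 0.30. The inflammatory chemokine Ccl2 lay at -0.67, with ratios of 1.028, 1.00, 1.237 and 0.279 in clones 1D, 20B, 30 and 42 and 0.639 in clone 11B, between clone 42 and the rest.

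Across the measured genes, 64 lay at least 1 log2 unit above the median of the other clones (0.678% of them) and 76 lay at least as far below (0.806%). At 0.5 log2 units the counts were 421 above (4.46%) and 444 below (4.71%). On probe sets without a median of 1, a high value of clone 11B alone could make a gene count as measured. A low value alone could not, so the counts above and below are not on equal footing. The same count at 1 log2 unit in either direction was 140 for clone 11B and 66, 116, 177 and 277 for clones 20B, 1D, 42 and 30, so clone 11B lay in the middle of the clones. The reference mattered: without clone 20B the counts were 107 above and 116 below. With the unmeasured probe sets averaged in they were 36 and 41. Taken in pairs, clone 11B was nearest to clone 20B, with 52 genes at least 1 log2 unit higher and 108 lower. Against clone 1D there were 100 higher and 210 lower, against clone 30 there were 222 and 189, and against clone 42 there were 184 and 220. The genes below the median were often also low in clone 30: only 35 of the 76 differed from clone 30 by 1 log2 unit, whereas 56 differed from clone 20B, 65 from clone 1D and 71 from clone 42. Of the 64 genes above the median, 55 differed by that much from clone 30 and 60 from clone 42, but 33 from clone 20B.

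In the strictest comparison, 24 genes lay at least 1 log2 unit above all 4 other clones (0.254% of measured genes) and 20 lay at least as far below them (0.212%). The count below depended on clone 30, without which it was 45. Of the 24 genes above, 20 were measured on 1 probe set, 4 only on probe sets with shared levels and 2 only on probe sets without a median of 1. These 2, Eqtn and Camk1d, were below 1 in all other clones and counted as measured only through their high value. A low value alone could not have made such a gene count as measured. The counts above and below are therefore not on equal footing. Of the 20 below, 15 were on 1 probe set and 5 only on shared levels. The nearest gene outside was Mapkapk2 at a gap of 0.98 above, against C1galt1 at 1.00 inside, and Rnf6 at -0.995 below, against Adipor2 at -1.06 inside.

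**Figure D2:**
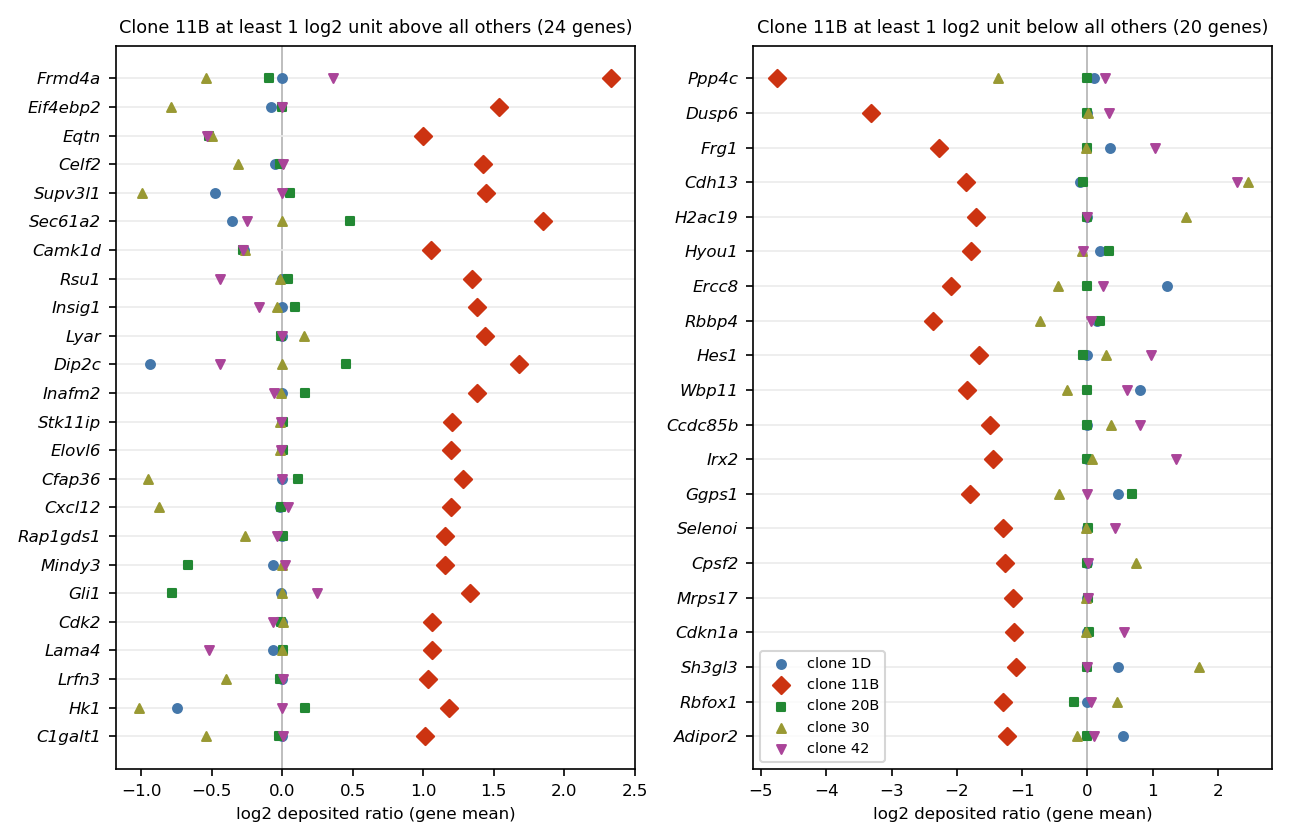
Log2 deposited ratio (average over a gene's measured probe sets) in each of the 5 clones for the 24 genes at least 1 log2 unit above (left) and the 20 genes at least 1 log2 unit below (right) all other clones in clone 11B, ordered by the gap to the nearest clone; each point is 1 array. The red diamonds of clone 11B stand clear of the other markers by 1.00 (C1galt1) to 1.98 (Frmd4a) on the left and by 1.06 (Adipor2) to 3.39 (Ppp4c) on the right.

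Frmd4a, a scaffold of cell polarity, had the largest gap above the other clones. It read 1.00, 0.939, 0.687 and 1.281 in clones 1D, 20B, 30 and 42 and 5.04 in clone 11B, a deviation of 2.38. Clone 11B exceeded the next clone, 42, by 3.93-fold. None of the other 18 measured genes of polarity and actin scaffolds passed 1 log2 unit, and the next was Cyth2, an exchange factor of small GTPases, at 0.67. Gli1, a transcription factor and target of Hedgehog signalling, read 0.996, 0.582, 1.00 and 1.19 in the other clones and 2.52 in clone 11B. Cdk2, the kinase of S phase entry, read 1.00, 0.994, 1.004 and 0.956 against 2.09. Rsu1, a partner of the integrin-linked adhesion complex, had a ratio of 2.54 against 0.737 to 1.03. Camk1d, a calcium and calmodulin dependent kinase, had a ratio of 2.08 against 0.823 to 0.833, values below 1 that lay close together, so its size is uncertain. Lama4, a laminin chain of vessel basement membranes, had a ratio of 2.08 against 0.697 to 1.00.

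Sec61a2, a subunit of the channel that passes proteins into the endoplasmic reticulum, had 2 probe sets. They read 0.805, 1.771, 1.00 and 0.98 against 2.92, and 0.761, 1.1, 1.00 and 0.719 against 4.44. Clone 11B was highest on both, and the deviation was 1.98. Supv3l1, a mitochondrial RNA helicase, read 0.72, 1.038, 0.502 and 1.00 in the other clones and 2.72 in clone 11B. Eif4ebp2, which holds back cap-dependent translation, had a ratio of 2.90 against 0.578 to 1.00. The other members of the translation list lay to both sides. Of 18 measured genes of cap-dependent translation 12 lay below 0, against 52.3% of all measured genes, with a list median of -0.13. Only the helicase Eif4a1, at -0.62, passed 0.5 log2 units downwards, and Eif4a2 at 0.53 and Rheb, an activator of mTOR, at 0.52 passed it upwards beside Eif4ebp2. Celf2, an RNA-binding splicing regulator, depended on the probe set: deviations of 2.51, 1.78 and 0.09. Hk1, the first enzyme of glycolysis, was supported by both of its probe sets, with 2.11 and 2.45 in clone 11B against 0.436 to 1.20 and 0.563 to 1.05 in the others. The list of hypoxia and glycolysis did not follow it. Beside Adm and Hk1, none of the other 16 measured members passed 0.5 log2 units upwards, and the median was 0.03.

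Of the 24 genes above, 11 stayed at least 1 log2 unit above all other clones in every one of 15 alternative settings that measured them. These were Frmd4a, Sec61a2, Insig1, Lyar, Dip2c, Inafm2, Stk11ip, Cfap36, Gli1, Lrfn3 and Hk1. None of the 11 had an unmeasured probe set, so the setting that averages these in could not change them. The other 13 each had at least 1, and averaging in the gene's unmeasured probe sets took the gap below 1. Eif4ebp2 then had a deviation of 0.39, Celf2 0.62, Lama4 0.55 and Cdk2 0.54. Stk11ip and Lrfn3 rested on shared levels, so their sizes are uncertain although their calls did not change. The setting that left out recurring ratios did not measure these 2 genes.

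Ppp4c and Dusp6 had the largest gaps below the other clones, followed by Frg1 with a gap of -2.26. Ppp4c, the catalytic subunit of protein phosphatase 4, read 1.07, 1.00, 0.388 and 1.21 in clones 1D, 20B, 30 and 42 and 0.0369 in clone 11B. The deviation was -4.81 on its only probe set, and clone 30 was the next lowest. Subunits of protein phosphatases 4 and 2A were divided: of 17 measured, Ppp4c included, 8 lay above and 9 below the median. Ppp4r3b, a targeting subunit of phosphatase 4, lay at 1.05. Ppp2ca, a catalytic subunit of phosphatase 2A, lay at -0.50 with clone 11B lowest. Dusp6, the phosphatase that switches off ERK, read 0.997, 1.00, 1.00 and 1.26 against 0.101, a deviation of -3.31 from a shared level. The other genes of ERK feedback did not follow. Of 17 measured members 10 lay above the median, among them the inhibitors Spry4 at 0.49 and Spred3 at 0.47.

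Cdh13, which encodes T-cadherin, was low on all 3 measured probe sets. On 1423551_at the ratios were 0.924, 1.00, 8.48 and 6.65 in clones 1D, 20B, 30 and 42 and 0.281 in clone 11B. On 1454015_a_at they were 1.00, 0.879, 5.81 and 7.26 against 0.127, and on 1434115_at 0.857, 1.00, 3.42 and 2.42 against 0.583. Clone 11B was the lowest each time, but the deviation of -2.98 also reflects the height of clones 30 and 42, and the gap to the nearest clone was -1.75. Ctnnb1, the beta-catenin that links cadherins to the cytoskeleton and carries Wnt signals, lay at -1.37 with probe sets at -2.02, -1.36 and -0.31, each with clone 11B lowest. Hes1, a repressor switched on by Notch, read 1.00, 0.955, 1.21 and 1.97 in the other clones and 0.317 in clone 11B. Its deviation of -1.80 was not shared by Notch1 at 0.11. Notch2 lay at 0.25 and Rbpj, the DNA-binding partner of Notch, at 0.48. Both counted as measured only through clone 11B, so neither could have counted as low. The fringe glycosyltransferase Lfng, which modifies Notch, lay at -0.61.

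Among the remaining genes below, Irx2, a homeobox factor, read 1.00, 0.998, 1.05 and 2.55 against 0.368. H2ac19, a replication histone, lay at -1.71 on 2 probe sets with shared levels. Rbbp4, a histone-binding subunit of chromatin complexes, had a deviation of -2.47, but its probe sets read 0.0114, 0.789 and 0.813 in clone 11B, deviations of -6.51, -0.34 and -0.38. Meis1, a homeobox gene on the list of cardiac transcription factors, went the other way with 0.86, 1.00, 1.873 and 0.609 against 3.29, a deviation of 1.83. Its gap to clone 30 was 0.81. Of the 20 genes below, 11 kept a gap of 1 log2 unit in every setting that measured them. These were Ppp4c, Dusp6, Frg1, Cdh13, H2ac19, Hyou1, Hes1, Ccdc85b, Irx2, Mrps17 and Sh3gl3. Only Cdh13 and Hyou1 among them had an unmeasured probe set, so averaging these in could not change the rest. Dusp6, H2ac19 and Mrps17 rested on shared levels, so their sizes are uncertain. The setting that left out recurring ratios did not measure them.

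Several genes of cholesterol and fatty acid synthesis were high in clone 11B. These genes are switched on by SREBP factors when membrane sterol is low, and Insig1 is the sensor that holds SREBP back and is itself a target. Insig1 read 1.00, 1.065, 0.974 and 0.89 in clones 1D, 20B, 30 and 42 and 2.61 in clone 11B, a deviation of 1.40. Scd2, a desaturase of fatty acids, read 0.828, 1.192, 1.00 and 0.975 against 2.22, a deviation of 1.17. Clone 11B was the highest clone for both, with gaps to the next clone of 1.29 for Insig1 and 0.90 for Scd2. Scd2 was measured on 1 of its 3 probe sets.

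Further members pointed the same way with smaller or mixed values. Hmgcs1, which makes the substrate of the rate-limiting reductase, had probe sets at 2.46, 2.21, 1.165 and 1.032 in clone 11B, deviations of 1.35, 1.15, 0.23 and 0.05. Msmo1, a demethylase of the late pathway, read 0.996, 1.524, 0.575 and 1.00 against 1.995, a deviation of 1.00 (0.999) and a gap to clone 20B of 0.39. Fdft1, the squalene synthase, had probe sets at 0.92 and -0.01. Elovl6, a fatty acid elongase outside the list, read 1.00, 1.003, 0.989 and 0.993 against 2.29, above a shared level that recurred on 883 other probe sets. Stard4, a sterol carrier, lay at 0.23 and Nsdhl, an enzyme of the late pathway, at 0.11. The remaining members stood near 0: Srebf2, the factor itself, at 0.04, and Mvk, Lss, Fasn and Dhcr7 between -0.01 and -0.00. In all, 8 of 12 measured genes lay above the median, against 47.7% of all measured genes, with a list median of 0.17. At least 0.5 log2 units above lay 4, against 4.46% of all. On probe sets without shared levels 10 genes remained with a median of 0.42, and with flat probe sets kept the median was 0.04.

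The promoters of 3 of these genes are shown because all of them carry the letters bound by NF-Y, the usual partner of SREBP, and Hmgcs1 also those bound by SREBP. They are RefSeq windows of 300 bases across the annotated start on GRCm38.p6, written on the strand of the gene. Capitals mark each CCAAT box, the core bound by NF-Y, read as CCAAT or on the other strand as ATTGG, and the sterol response element TCACNCCAC. Insig1 lies at chr5:28071162-28071461 on the plus strand, Msmo1 at chr8:64733529-64733828 on the minus strand and Hmgcs1 at chr13:119690101-119690400 on the plus strand.
Insig1: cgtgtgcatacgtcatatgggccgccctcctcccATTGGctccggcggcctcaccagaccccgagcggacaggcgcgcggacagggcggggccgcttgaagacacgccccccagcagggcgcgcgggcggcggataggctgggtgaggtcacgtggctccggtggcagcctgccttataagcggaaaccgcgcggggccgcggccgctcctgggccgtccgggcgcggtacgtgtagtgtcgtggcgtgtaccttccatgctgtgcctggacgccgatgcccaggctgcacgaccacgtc
Msmo1: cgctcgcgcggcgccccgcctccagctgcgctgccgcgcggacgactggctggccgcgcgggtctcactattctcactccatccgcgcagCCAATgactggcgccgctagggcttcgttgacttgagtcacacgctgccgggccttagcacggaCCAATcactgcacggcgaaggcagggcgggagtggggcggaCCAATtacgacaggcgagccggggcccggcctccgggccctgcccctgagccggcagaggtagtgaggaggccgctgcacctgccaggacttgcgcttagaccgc
Hmgcs1: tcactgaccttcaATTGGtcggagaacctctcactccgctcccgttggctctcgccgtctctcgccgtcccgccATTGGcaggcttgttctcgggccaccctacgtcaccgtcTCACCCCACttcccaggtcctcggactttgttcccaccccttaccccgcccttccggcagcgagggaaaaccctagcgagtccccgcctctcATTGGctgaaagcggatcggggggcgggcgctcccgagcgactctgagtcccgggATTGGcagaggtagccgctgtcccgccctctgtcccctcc
Insig1 holds 1 CCAAT box, Msmo1 holds 3, and Hmgcs1 holds 4 with 1 sterol response element, and no match overlaps another. Both strands were searched in each window. All 9 measured cholesterol genes with a window held a CCAAT box, against 37.4% of all 32851 promoter windows of this length; a sterol response element was in 1 of the 9, against 1.24%. Those 9 include Fasn, Lss, Mvk and Dhcr7, for which no difference was seen in clone 11B. Only 1 of these 4 had a probe set with a median of 1 and without shared levels, so a difference could have been missed. Whether the letters separate the members that stood high could therefore not be told.

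Immediate early genes, which growth factors switch on without new protein synthesis, had more members below than above the median. Of 19 measured genes 16 had a negative deviation, against 52.3% of all measured genes, and the list median was -0.16. At least 0.5 log2 units below lay 4, against 4.71% of all. Among the 16, Egr3, Fosb, Nr4a2, Zfp36 and Egr2 lay between -0.03 and -0.01. Egr1, a zinc finger factor, read 1.00, 1.003, 0.989 and 1.174 in clones 1D, 20B, 30 and 42 and 0.53 in clone 11B, below a shared level that recurred on 883 other probe sets. Fos, a subunit of AP-1, read 1.258, 1.014, 0.986 and 1.00 against 0.679. Clone 11B was lowest for both, with deviations of -0.92 and -0.57. The probe sets of Jun, its partner, disagreed at -1.34 and 0.36, as did those of Ier5 at -2.00 and 0.08. Nr4a3 at 0.29 and Nr4a1 at 0.23, nuclear receptors of the same response, lay above, each against a shared level.

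CDK inhibitors and p53 targets had more members below than above the median. Of 13 measured CDK inhibitors and p53 targets 10 lay below the median, against 52.3% of all measured genes, with a list median of -0.24. At least 0.5 log2 units below lay 4, against 4.71% of all. Cdkn1a, the p21 inhibitor of cyclin dependent kinases, read 1.00, 1.013, 0.989 and 1.481 in the other clones and 0.457 in clone 11B, a deviation of -1.14. It became -0.60 with its unmeasured probe set averaged in. Mdm2, the ligase that removes p53, lay at -0.97, but clone 30 stood at 0.646 beside 0.583 in clone 11B. Phlda3, another p53 target, went against the list with 1.042, 1.00, 0.819 and 0.711 against 1.541, a deviation of 0.77. The CDK inhibitors were divided: Cdkn1b, the p27 inhibitor, had probe sets at -1.48 and 0.46, and Cdkn2c at 0.13 and Cdkn2d at 0.27 lay above the median.

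Among 19 measured mitosis genes 13 lay above the median, against 47.7% of all measured genes, with a list median of 0.22. None lay 0.5 log2 units above. Ube2c, which feeds the anaphase-promoting complex, read 0.864, 1.00, 0.808 and 1.001 in the other clones and 1.221 in clone 11B. Aurka, a spindle kinase, read 0.997, 1.00, 0.86 and 1.014 against 1.243. Clone 11B was the highest in each, but deviations of 0.39 and 0.32 do not exceed the 0.41 by which single probe sets scatter. DNA replication genes split, with 9 of 19 above and 10 below. The subunits of ribonucleotide reductase, Rrm1 at -0.85 and Rrm2 at -0.78, were the lowest, and Rfc4, a clamp loader subunit, was the highest at 0.73, where clones 30 and 42 were low.

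A few genes of protein folding in the endoplasmic reticulum lay far below the median. Of 24 measured genes of the unfolded protein and integrated stress responses 17 lay below the median, against 52.3% of all measured genes. The list median was -0.12. At least 0.5 log2 units below lay 4, against 4.71% of all. Hyou1, a large chaperone, read 1.32, 1.48, 0.892 and 1.00 in clones 1D, 20B, 30 and 42 and 0.112 in clone 11B on 1423290_at, but 1.00, 1.078, 1.00 and 0.918 against 0.752 on 1423291_s_at. Clone 11B was the lowest on both, at sizes that differed widely. The lectin chaperone Canx had probe sets at -1.91 and -0.29, and Hsp90b1, the chaperone of the HSP90 family in this compartment, at -2.07 and 0.26. On the lower probe set of each, clone 30 was next, at 0.413 for Canx and 0.359 for Hsp90b1. Atf4, the factor that carries the integrated stress response, had probe sets at -0.89, -0.69 and 0.04. Other folding genes stood near 0: Hspa5, the main chaperone of this compartment, at -0.03, Dnajb9 at -0.01, Sdf2l1 at 0.01, Pdia4 at 0.08, Calr at 0.09 and Manf at 0.10. Ddit3, a target of Atf4, lay at -0.26.

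Other genes of protein synthesis and folding were mixed. Of 24 measured cytosolic ribosomal protein genes 16 lay below the median, which was -0.11, and -0.01 without clone 42. Rplp0, an acidic protein of the large subunit, read 1.00, 1.307, 0.708 and 1.397 in the other clones and 0.364 in clone 11B, a deviation of -1.65 that no other ribosomal gene came near. Hspb1, a small heat shock protein, had 2 probe sets at -1.43 and -1.39, and clone 42 was lower than clone 11B on both. Proteasome subunits were balanced, 15 above and 14 below of 29, as were genes of the respiratory chain, 19 above and 15 below of 34.

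**Figure D3:**
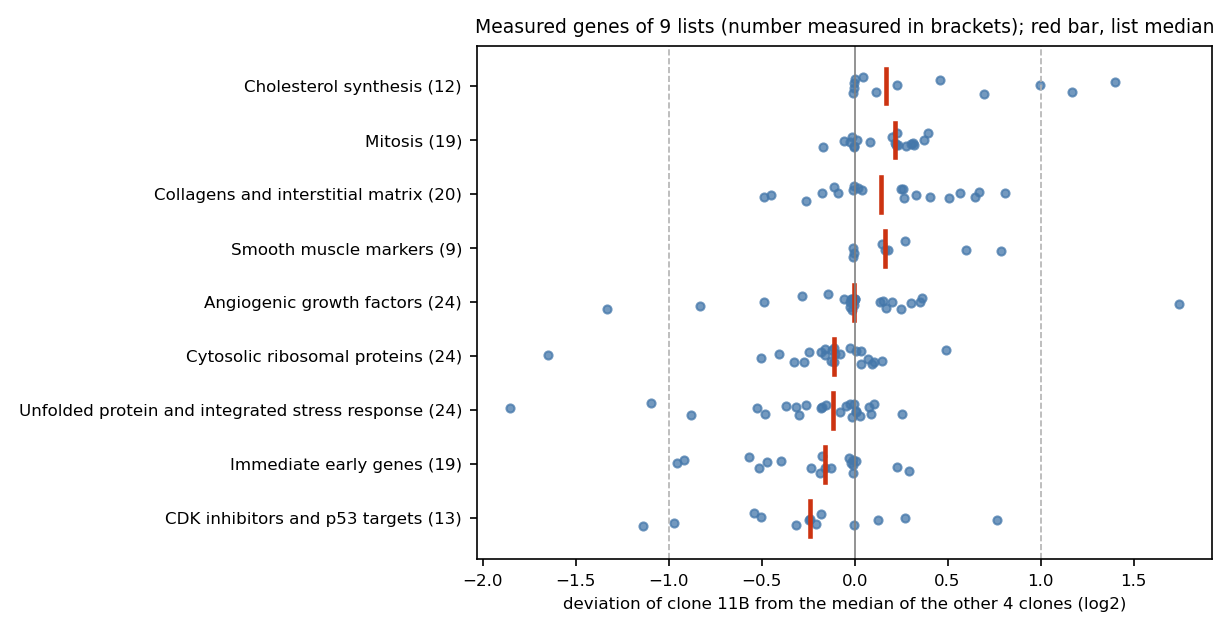
Deviation of clone 11B from the median of the other 4 clones (log2) for the measured genes of 9 lists, 1 point per gene, with the list median as a red bar and dashed lines at 1 log2 unit; vertical scatter within a row has no meaning. Medians run from 0.22 for mitosis to -0.24 for CDK inhibitors and p53 targets, and single genes such as Insig1 at 1.40 and Hyou1 at -1.85 lie far outside their lists.

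Interstitial matrix genes had more members above than below the median. Of 20 measured collagens and matrix genes 12 lay above the median, against 47.7% of all measured genes, with a list median of 0.14. At least 0.5 log2 units above lay 5, against 4.46% of all, and none lay as far below. Fbn2, 1 of the 5, read 0.701 to 0.881 in the other clones and 1.043 in clone 11B. It counted as measured only through clone 11B. Col5a2, a collagen that sets the width of fibrils, read 1.029, 1.00, 0.685 and 0.63 in clones 1D, 20B, 30 and 42 and 1.159 in clone 11B on 1422437_at, and 2.18 against a shared level on 1450625_at. Col6a2, a chain of the microfibrillar collagen VI, read 1.00, 0.995, 2.887 and 0.51 against 1.498, second to clone 30. Clone 20B was above clone 11B for Col8a1, which lay at 0.67, and clone 30 for Bgn, the proteoglycan biglycan, at 0.51. The main fibrillar collagen Col1a1 lay at -0.26 and Sparc at -0.45. With genes on 2 or more probe sets only, the list median was 0.41 over 9 genes, and with flat probe sets kept it was 0.04.

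Other genes of the matrix and of contractile cells showed single high members. Mmp3, a protease of the matrix, read 1.00, 0.664, 0.134 and 3.128 in the other clones and 2.18 in clone 11B, below clone 42. Of 9 measured smooth muscle markers 6 lay above the median, against 47.7% of all measured genes. Smtn lay at 0.79, Tagln at 0.60 and Acta2 at 0.16, and the list median was 0.16. Clone 30 exceeded clone 11B for Tagln and Acta2. Smtn, an actin-binding protein of smooth muscle, read 0.541, 1.014, 1.00 and 0.926 against 1.659. The defining markers Myh11 and Des stood at -0.01 each. Bmp2, a growth factor of the heart and of bone, read 1.00, 1.228, 0.798 and 0.97 against 1.922, a deviation of 0.96, while 13 of the 28 measured genes of its wider pathway lay below the median. Cebpb, a factor of adipogenesis and of the acute response, was lowest in clone 11B on both probe sets, at -1.52 and -0.70. Usp18, an interferon-induced protease, read 0.656, 1.00, 1.157 and 0.697 against 2.04, with no other interferon gene of the 10 measured above 0.5 log2 units.

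Several genes that stood high in clone 11B were neighbours. Chromosome 10 held 13 and chromosome 2 held 10 of the 64 genes at least 1 log2 unit above the median, with 466 and 766 of the 9435 measured genes. Of the 24 genes above all other clones, 7 were on chromosome 2 and 6 on chromosome 10. Over all measured genes 4.46% lay at least 0.5 log2 units above the median and 0.678% at least 1. Among 20 measured neighbours on chromosome 2 from Camk1d to Hacd1, 11 lay at least 0.5 log2 units above and 6 at least 1. Their median was 0.79. The 11 include Camk1d at 1.33, Cdc123 at 0.88, Sec61a2 at 1.98, Upf2 at 0.81, Celf2 at 1.46 and Atp5c1 at 1.00. Mindy3 at 1.19, Rsu1 at 1.35 and Vim at 1.02 are also among them. Between them Rbm17 stood at -0.44 and Fbh1 at -0.41. Vim, the intermediate filament of mesenchymal cells, was high on all 3 probe sets, at 1.36, 1.07 and 0.67. These genes share no function that the lists capture: a kinase, a translocon subunit, a decay factor of RNA, an ATP synthase subunit and an intermediate filament.

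On chromosome 10, 10 of 20 neighbours from Pald1 to Sirt1 passed 0.5 log2 units, with a median of 0.47. Eif4ebp2 lay at 1.58, Supv3l1 at 1.68, Hk1 at 1.56, Sar1a, a GTPase of vesicle budding, at 1.00 and the RNA helicases Ddx50 and Ddx21 at 0.97 and 0.74. Here clone 30 was low as well, at log2 ratios of -1.14 for Ppa1, -0.99 for Supv3l1 and -1.01 for Hk1, whereas clone 42 stood at 0.00 for each. On chromosome 5, 8 of 20 neighbours from Tada2b to Rab28 passed 0.5, with a median of 0.40. They include Ppp2r2c at 1.69, Lyar at 1.44 and, next to it, Msx1 at 0.66, Stx18 at 0.65 and Tmem128 at 0.79. Over all measured genes 4.46% passed 0.5 log2 units upwards. These windows were picked for holding the most such genes, so their counts are a description.

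Clone 11B was not alone in having such stretches. Unbroken runs of at least 3 neighbours 0.5 log2 units or more the same way numbered 11 in clone 11B, 9 of them above, and 19, 9, 26 and 26 in clones 1D, 20B, 30 and 42. The longest in clone 11B held 5 genes, Mindy3, C1ql3, Rsu1, Vim and Hacd1. C1ql3 read 0.787 to 0.795 in the other clones and 1.537 in clone 11B, so it counted as measured only through clone 11B, as did Camk1d in the same window and Tmem128 on chromosome 5. The run of 5 and the count of 11 rest in part on such genes. The fullest windows of the other clones held 11 to 13 such genes of 20 and lay on chromosomes 3, 13, 1 and 16. The medians of whole chromosomes shifted little: 61.0% of 523 genes on chromosome 1 lay above 0 with a median of 0.01, and 34.4% of 783 on chromosome 11 with a median of -0.01. Shares at 0.5 log2 units were less even. That above was highest on chromosome 10, at 9.66% against 4.46% of all measured genes. That below was 10.3% on chromosome 18, 9.17% on chromosome 13 and 8.68% on chromosome 11, against 4.71% of all. Copy number was not measured on these arrays.

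**Figure D4:**
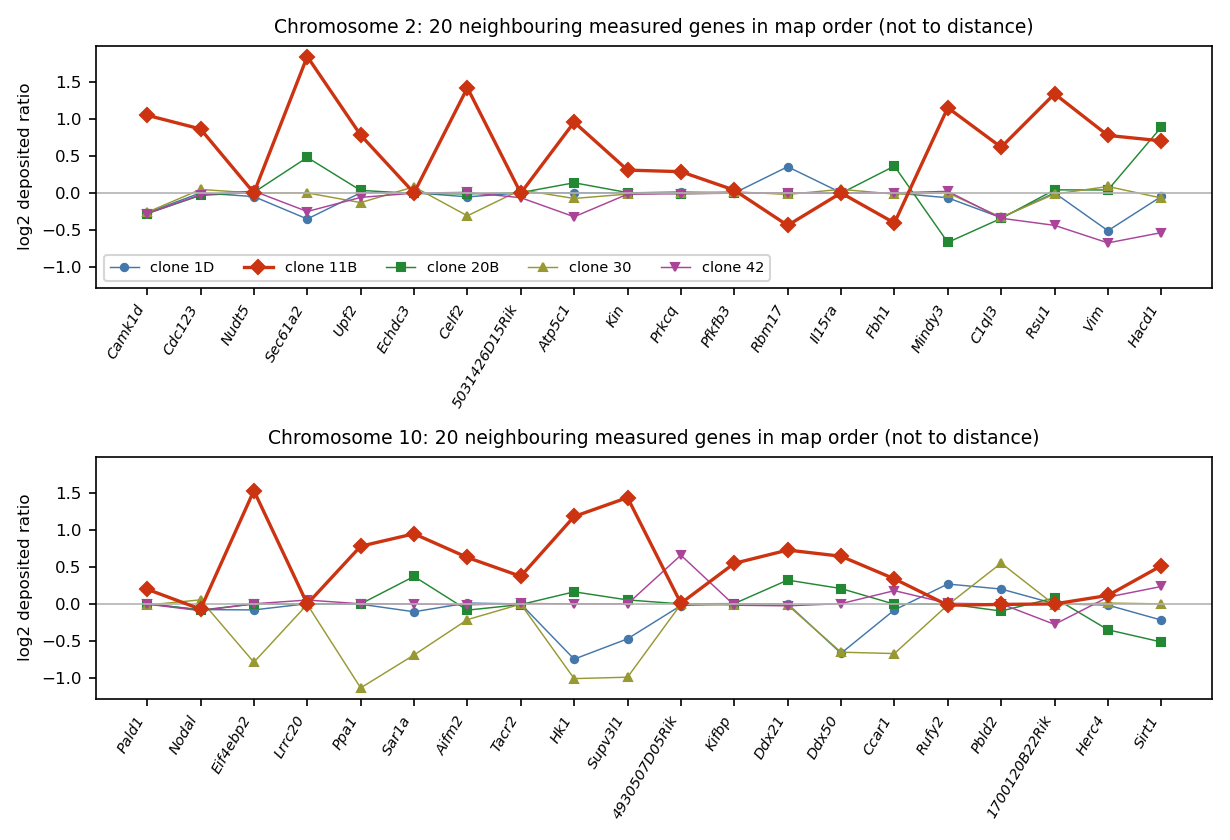
Log2 deposited ratios of the 5 clones for 20 neighbouring measured genes on chromosome 2 (top) and chromosome 10 (bottom), in map order and not to distance; lines join the genes of 1 clone and each point is 1 array. Clone 11B lies at least 0.5 log2 units above the median of the others for 11 genes on chromosome 2 and 10 on chromosome 10, with genes near 0 between them, and clone 30 is low for several of the chromosome 10 genes.

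Low values in clone 11B were often not shared by a further probe set of the gene. In genes with at least 2 measured probe sets, 231 probe sets had a deviation of -1 or lower, and for 41 of them (17.7%) another probe set of the gene did too. In the other clones that share was 25.3% to 38.3%, and the difference was not tested. Low probe sets whose gene had its other probe sets little changed made up 39.0% in clone 11B. That share was 33.3% to 40.7% in the other clones, so clone 11B did not stand apart by it. For high values it was 23 of 94 (24.5%) in clone 11B and 24.0% to 48.9% in the others. Probe sets whose names end in _a_at, which match several transcripts of 1 gene, lay at least 1 log2 unit below in 3.65% of 2493 cases in clone 11B, against 1.69% of 9456 without a suffix. High values did not show this, at 1.08% and 1.00%. These shares by suffix were counted for clone 11B only. Examples among the genes above are Rbbp4, Hyou1, Kitl, Canx and Hsp90b1, each with a deviation of -1 or lower on 1 probe set only. On these probe sets of Rbbp4, Kitl, Canx and Hsp90b1 clone 30 was next, with ratios of 0.241, 0.227, 0.413 and 0.359. On that of Hyou1 it read 0.892. In other genes far below, clone 30 was the highest clone: Cdh13 at 8.48 on 1423551_at, H2ac19 at 2.77 on 1418366_at and Sh3gl3 at 3.28. The Actb 5' to 3' ratio was lowest in clones 11B and 30, at 0.597 and 0.743. The position of a probe set within its transcript was not used here, so the part of that ratio in these values was not tested.

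**Figure D5:**
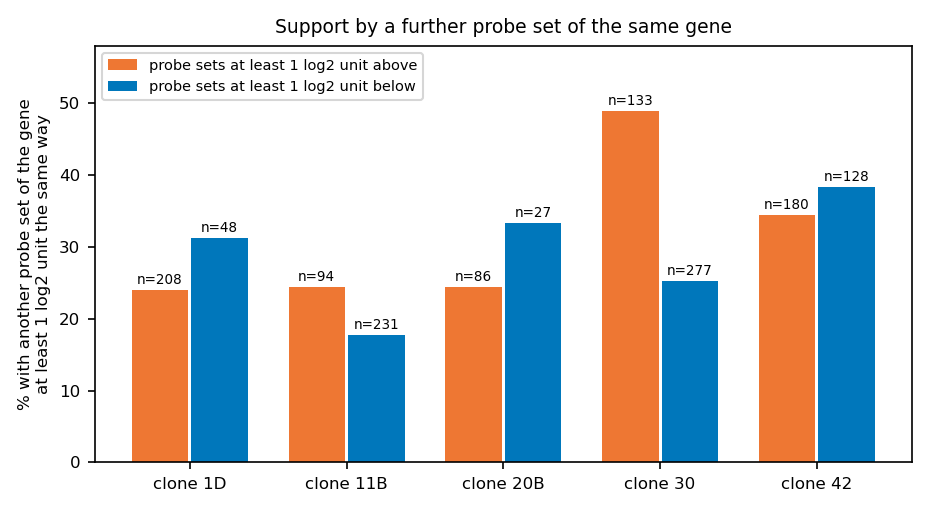
Percent of probe sets at least 1 log2 unit above (orange) or below (blue) the median of the other clones for which a further probe set of the same gene was as far the same way, by clone; n is the number of probe sets in each bar, over genes with at least 2 measured probe sets. Clone 11B has the lowest share below, 17.7% of 231, and 24.5% of 94 above.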

How the data were processed

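The deposited table holds, per the file headers, 1 column for each of 5 clones, and each value is a ratio on a linear scale for 1 of 45101 probe sets. Per the submitters' processing notes the tools were RMA and GCRMA; no version is given, nor which of them made these values. That probe sets were divided by their own median or, when low, by a floor is read from the values: the median is exactly 1 for 18926 probe sets and below 1 for 26175. Scanner files and detection calls were not used here, and the build is not given in the sources used here. The number of arrays limits the precision.

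Probe sets with 1 gene symbol (34958) were named from the array annotation, with symbols updated from RefSeq (GRCm38.p6), and 932 with several and 9211 with none were left out. A probe set was measured if its median was 1 or any clone exceeded 1, and if it ranged over more than 0.05 log2 units. Where the median was below 1, a probe set could thus enter through 1 high clone alone, but not through 1 low clone. Log2 ratios were averaged over a gene's measured probe sets. With 1 array per clone, no test was made. Named were Cxcl12, Cxcr4, Ackr3, Dpp4, Kit, Ly6a and Pou5f1, the genes beyond all other clones, the 10 largest deviations in each direction, up to 5 members of a list and the members of runs. Further genes were named after their values were seen. The members and the gene lists were chosen with earlier results of these data known. The calculations were tested on simulated data. Python 3.11.15, numpy 2.4.6, pandas 2.3.3 and matplotlib 3.10.9 were used.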

Additional observations from a re-analysis of the deposited data

How the results depend on the processing

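No paired analysis was possible because each clone has 1 array. In the 15 alternative settings the medians of the immediate early, collagen, mitosis, CDK inhibitor, unfolded protein, cholesterol, smooth muscle, ribosomal and translation lists kept their sign wherever they were measured. Medians near 0 did not all do so: that of the angiogenic factors kept its sign in 13 settings, hypoxia and glycolysis in 12, protein phosphatases 4 and 2A in 8 and polarity scaffolds in 6. Genes 1 log2 unit or more above the median of the other clones numbered 36 when all probe sets of a gene were averaged, 113 when a gene was read from its probe set of highest mean, 14 with genes on 2 or more probe sets only (a setting added after the data were seen, with fewer genes) and 53 to 107 with 1 of the other clones left out. The number below was 41, 120 and 31 in these settings and 82 to 116 with 1 clone left out. Above all other clones it was 11, 45 and 4, with 25 to 36 when 1 clone was left out, and below all others 12, 35 and 5, with 22 to 45. With that choice by the highest mean, list medians became -0.03 (-0.0252) for immediate early genes, -0.0094 for cap-dependent translation, -0.0123 for CDK inhibitors and p53 targets, -0.0032 for the unfolded protein response, 0.265 (0.27) for collagens and 0.3558 (0.36) for smooth muscle markers. The median of the unfolded protein list was -0.26 when probe sets with names ending in _x_at, _s_at or _a_at were left out. It was -0.24 on 2 or more probe sets. The collagen median was 0.05 (0.0493) with a floor under low values, 0.04 (0.0379) with flat probe sets kept and 0.41 on 2 or more probe sets. The cholesterol median was 0.04 (0.0439) with flat probe sets kept and 0.42 with recurring ratios left out. The mitosis median was 0.10 (0.0951) with every probe set averaged, and the ribosomal median ran from -0.15 to -0.0091 with 1 clone left out. The cause of these changes was not tested. The deviation of Cxcl12 ranged from 0.84 to 1.496. A gene on 1 probe set at the floor in most clones has only a lower bound to its difference, and 1 array per clone shows nothing of the spread between cultures.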
